A study of Mus musculus with 6 samples.

Results

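The transcription factors and cofactors Foxc1, Foxc2, Foxf1, Foxf2, Foxh1, Eya1, Osr1, Tcf21 and Prdm1, which mark pharyngeal and splanchnic mesoderm, were followed in cells of the Isl1 lineage with and without stabilised β-catenin. They were taken as every probe set of the array whose annotation names only 1 of these 9 genes. This gave 17 probe sets of 34945 that name a single gene, and all 9 genes of 18193 were measured. The samples were yellow fluorescent (YFP+) cells sorted from mouse embryos at embryonic day 9, and each of 6 arrays carried RNA of 1 sample, with 3 arrays labelled wild type and 3 labelled mutant. The mutant embryos carried Isl1-cre, Rosa-YFP and a Beta-catenin allele with loxP sites around exon 3, whose removal by Cre yields a protein that escapes breakdown. The labels of the wild-type samples give the fluorescence and the cell type but not their Cre or reporter genotype. The series' design text places the sorted cells in the Isl1-cre domain without separating the groups, and Cre activity from Isl1 also covers cells outside the heart field. The strain and the number of embryos behind each sample are not given here. The design text speaks of independent experiments but does not tie arrays to embryos, so a p-value reflects the scatter among these arrays only, which may be technical in part.

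Pharyngeal and splanchnic mesoderm lies beside the foregut and supplies the second heart field, which adds cells to both ends of the early heart tube, and the progenitors of the jaw and face muscles. Forkhead proteins bind DNA through a winged-helix domain. Foxc1 and Foxc2 are close relatives with overlapping roles in mesoderm around the pharynx, in somites and in vessels, Foxf1 and Foxf2 mark splanchnic mesoderm that answers Hedgehog signals from the endoderm, and Foxh1 carries Nodal and activin signals to DNA together with Smad2. Eya1 is a transcriptional cofactor and phosphatase, Osr1 is a zinc finger factor of lateral and posterior heart field mesoderm, Tcf21 is a basic helix-loop-helix factor of jaw muscle progenitors and epicardium, and Prdm1 (Blimp1) is a zinc finger repressor of pharyngeal tissue. Canonical Wnt signalling acts through β-catenin and the TCF/LEF factors, so the promoters of the members were searched for TCF/LEF words.

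Promoter sequences from RefSeq (build GRCm38.p6) were matched for 4 of the 9 genes, Foxc1, Foxf2, Tcf21 and Prdm1, and not for Foxc2, Foxf1, Foxh1, Eya1 and Osr1. The 250 bases before the annotated start were searched on both strands for 4 TCF/LEF words, namely the word CTTTGAA, the word CTTTGAT, the word CTTTGTA and the word CTTTGTT, and for the forkhead word GTAAACA. None of the 4 held a TCF/LEF word, while 14.8% of 32851 promoters did. Of the 4, Prdm1 alone held the forkhead word, at bases -231 to -225 on the gene's own strand, and 3.17% of all promoters held it. Prdm1 is shown for that word, in capitals, and Foxc1 as the forkhead member without a match; both genes had overlapping groups. A match is a description of letters, not of binding, and the absence of a match covers this window only. The Prdm1 window is chr10:44458749-44458998 on the minus strand, and that of Foxc1 is chr13:31806396-31806645 on the plus strand.
Prdm1: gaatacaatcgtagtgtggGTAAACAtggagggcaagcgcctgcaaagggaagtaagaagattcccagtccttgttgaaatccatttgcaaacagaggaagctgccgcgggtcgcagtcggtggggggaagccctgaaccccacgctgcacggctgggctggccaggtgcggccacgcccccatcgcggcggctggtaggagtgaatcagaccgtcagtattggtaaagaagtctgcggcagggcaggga
Foxc1: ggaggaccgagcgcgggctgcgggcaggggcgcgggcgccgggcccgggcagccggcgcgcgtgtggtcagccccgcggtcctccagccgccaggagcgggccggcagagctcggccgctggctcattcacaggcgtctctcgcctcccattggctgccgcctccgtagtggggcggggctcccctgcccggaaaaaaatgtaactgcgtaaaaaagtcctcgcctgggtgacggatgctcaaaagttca

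Values are log2 signals as deposited, and a difference is mutant minus wild type on that scale. A rough background of 4.85 was taken from 27 probe sets for bacterial transcripts, as the 95th percentile of their means. The arrays had medians of 6.467 to 6.499 and correlated at 0.979 to 0.989 across genes. On the first principal component (36.4% of the variance) the wild-type arrays lay between -21.6 and -20.5 and mutant arrays 2 and 3 at 33.0 and 29.4, while mutant array 1 lay between the groups at 1.21. The fit called 12 of 18193 genes at an adjusted p under 0.05 (0.066%), all higher in mutant cells, 92 (81 higher and 11 lower) without mutant array 1, and 0 to 4 without any other single array. Whether any Ctnnb1 probe set lies in exon 3 is unknown here, so its level was not used to check the genotype. Of 12 genes known to answer Wnt signalling, 11 had higher values (median difference 0.69), and Apcdd1 (1.82, SE 0.16, adjusted p = 0.0371) rose, while Dkk1 stood at 1.31 (adjusted p = 0.0883).

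Of the 9 factors, 0 passed the test, by limma with Benjamini-Hochberg adjustment over all genes. At an unadjusted p under 0.05 there were 4 of the 9 (44.4%), with Foxc2 higher and Foxf1, Foxh1 and Osr1 lower. Of all genes 11.6% met that mark, 6.76% on the higher and 4.84% on the lower side. Members were chosen with earlier results of these data known, so these shares are a description and not a test. Groups did not overlap for 1 of the 9 (11.1%), Foxc2, against 17.8% of all genes, or 8.64% in its direction. Values were higher in mutant cells for 4 members (44.4%, where 44.7% of all genes were higher) and lower for 5, with a median difference of -0.20, where the median of all genes was -0.03. The members' median changed sign when single arrays were left out (from -0.38 without wild-type array 1 to 0.10 without mutant array 3), so the list as a whole had no settled direction.

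**Figure D1:**
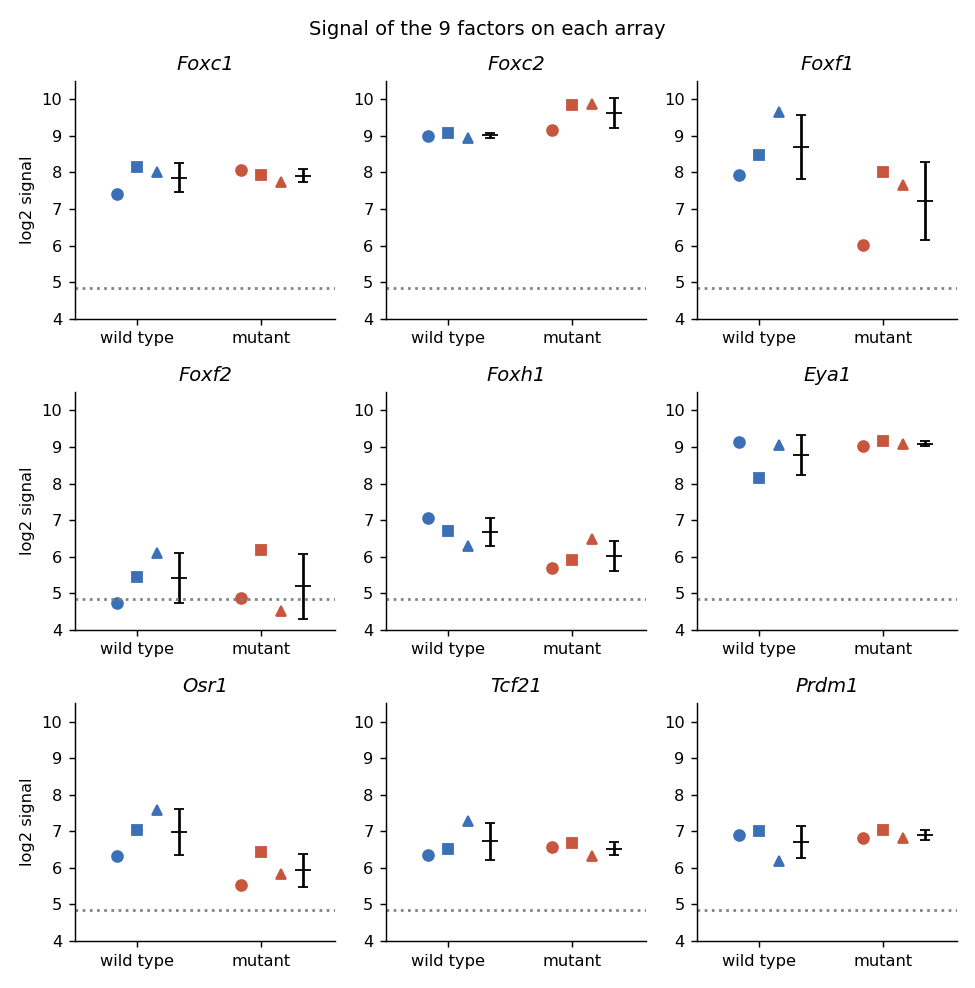
Signal (log2) of each of the 9 factors on the 3 wild-type (blue) and 3 mutant (red) arrays; circles, squares and triangles are arrays 1, 2 and 3 of a group, black bars the mean ± SD, and the dotted line the background level of 4.85. The groups are apart for Foxc2 and overlap for the other members; mutant array 1 has the lowest Foxf1 value, 6.01.

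Foxc2, the forkhead factor shared by pharyngeal mesoderm, somites and developing vessels, had the highest difference of the 9. It read 9.01, 9.08 and 8.95 in the wild-type samples (arrays 1, 2 and 3, in that order throughout) and 9.16, 9.83 and 9.88 in the mutant samples. Mutant array 1 lay just above the wild-type values, and mutant arrays 2 and 3 stood well above them. The means were 9.01 ± 0.06 and 9.62 ± 0.40 (SD, n = 3), a difference of 0.61 with SE 0.20 (95% confidence interval 0.13 to 1.09; 1.53-fold) that missed the threshold (adjusted p = 0.346). Without mutant array 1 it was 0.84 (adjusted p = 0.0679), and without mutant array 3 it was 0.48.

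Endothelial and neural crest markers, from cells that can also express Foxc2, stood higher on the mutant arrays as well. Endothelial markers had higher values for 12 of 12 genes, and their mean lay at 6.89 to 7.65 on wild-type and 7.98 to 8.34 on mutant arrays. Neural crest markers had higher values for 6 of 8, with means of 8.32 to 8.70 and 8.78 to 9.13. Paraxial mesoderm markers, which cover the somites, were higher for 3 of 9, with means of 6.68 to 7.51 and 6.64 to 7.26. Genes of the low oxygen response were higher for 12 of 12, with means of 9.58 to 9.78 and 10.74 to 11.39. That list holds 3 of the genes called in this comparison. All these lists were chosen with earlier results of these data known, so their counts are a description. Surface ectoderm markers were higher for 8 of 8, with means of 7.83 to 8.40 and 8.46 to 9.57. Mutant array 1, which had the lowest Foxc2 of the mutant arrays, also had their lowest mean for low oxygen, endothelial and surface ectoderm genes. The same held for paraxial mesoderm and Wnt response genes, but not for neural crest markers. None of the endothelial or neural crest markers was below background in both groups, and the part of any of these lists in the Foxc2 value was not tested. In such bulk samples, more cells of a type and more RNA per cell cannot be told apart.

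Foxc1, the closest relative of Foxc2, stood near the same level in both groups on its brighter probe set. It read 7.41, 8.15 and 8.01 in the wild-type samples and 8.07, 7.94 and 7.74 in the mutant samples, so that all mutant values lay within the wild-type range. The difference was 0.06 with SE 0.21 and an interval of -0.43 to 0.55 (adjusted p = 0.928). With the mean of 3 Y-linked genes as a covariate the same probe set gave 0.43 (limma, adjusted p = 0.567). Y-linked signal was high on all mutant arrays and on wild-type array 1 only, so that fit rests mostly on differences among the wild-type arrays. The dimmer Foxc1 probe set, 1419485_at, read 5.48, 5.73 and 5.70 in the wild-type samples and 5.83, 7.84 and 5.46 in the mutant samples. Its difference of 0.74 came with an SE of 0.55, and mutant array 2 alone stood apart.

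The change of Foxc2 relative to Foxc1 was compared within arrays. The log2 ratio of Foxc2 to Foxc1 was 0.55 higher in mutant cells, with overlapping groups (exact permutation test, two-sided, p = 0.2, adjusted p = 0.267 over 4 ratios). The adjustment also covered the ratios of the pairs of neighbours given below, which were added after the values were seen. With 3 arrays a group this test cannot give a p below 0.1. The change was 0.33 without mutant array 3 and 0.86 without mutant array 1. With the most variable probe set of each gene, which takes the dimmer one for Foxc1, the ratio turned to -0.13. An unequal change of Foxc1 and Foxc2 was therefore not shown.

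Foxf1, the forkhead factor of splanchnic mesoderm, had the lowest difference of the 9 and the widest spread. It read 7.94, 8.48 and 9.65 in the wild-type samples and 6.01, 8.004 and 7.64 in the mutant samples. Mutant array 1 was far below the rest, while mutant array 2 lay above wild-type array 1, so the groups overlapped. The means were 8.69 ± 0.87 and 7.22 ± 1.06 (SD, n = 3), a difference of -1.47 with SE 0.59 and an interval of -2.85 to -0.09 (adjusted p = 0.406). Without mutant array 1 the Foxf1 difference was -0.86, and without wild-type array 3 it was -0.99. The dimmer Foxf1 probe set, 1423013_at, read 6.35, 6.99 and 7.88 in the wild-type samples and 6.13, 6.76 and 5.77 in the mutant samples, a difference of -0.86 with SE 0.40. Both Foxf1 probe sets were lowest on array 1 and highest on array 3 of the wild-type group, and on the dimmer one mutant array 3, not array 1, was lowest.

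Foxf2, which is expressed in splanchnic and craniofacial mesenchyme, was close to background. Its brighter probe set read 4.73, 5.43 and 6.10 in the wild-type samples and 4.86, 6.19 and 4.52 in the mutant samples. The difference was -0.23 with SE 0.48 (adjusted p = 0.875), and arrays of both groups lay at or near the background level. The dimmer Foxf2 probe set, 1447562_at, stayed below background on average in both groups, at 3.53 and 3.47. The ratio of Foxf2 to Foxf1 was 1.24 higher in mutant cells (exact permutation test, two-sided, p = 0.2, adjusted p = 0.267). It was 0.80 without mutant array 1 and 1.78 without mutant array 3, and Foxf2 was below background on wild-type array 1 and mutant array 3, so the ratio rests in part on signal that was not detected.

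Foxf1 and Foxc2 are neighbours on mouse chromosome 8, with 1 annotated gene, Mthfsd, between them, and Foxf2 and Foxc1 are neighbours on chromosome 13 with 0 protein-coding genes between them (RefSeq, GRCm38.p6). Foxc2 had the highest and Foxf1 the lowest difference of the 9 factors, and this pair was set side by side because of those values. Its exact permutation test (two-sided) gave p = 0.1, the smallest the test can give. That p entered the adjustment given for the ratios of Foxc2 to Foxc1 and of Foxf2 to Foxf1. A p for a pair picked from its values cannot be read as a test, so the ratio is given as a description. The log2 ratio of Foxc2 to Foxf1 read 1.07, 0.60 and -0.69 in the wild-type samples and 3.14, 1.83 and 2.23 in the mutant samples, a change of 2.08. For the other pair of neighbours, the ratio of Foxc1 to Foxf2 was 0.29 higher in mutant cells (exact permutation test, two-sided, p = 0.6), less than the SD between the mutant arrays (0.85). That value depended on the probe sets and on single arrays. It was 0.97 with the most variable probe set of each gene and 0.55 with the mean of all probe sets (exact p = 0.1 for both, the smallest the test can give), and ran from 0.032 without wild-type array 3 to 0.78 without mutant array 2.

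Osr1, the zinc finger factor of posterior heart field and lateral mesoderm, has a single probe set. It read 6.32, 7.04 and 7.57 in the wild-type samples and 5.53, 6.44 and 5.82 in the mutant samples. Only mutant array 2 reached into the wild-type range, just above wild-type array 1. The means were 6.98 ± 0.63 and 5.93 ± 0.46 (SD, n = 3), a difference of -1.05 with SE 0.35 and an interval of -1.86 to -0.24 (adjusted p = 0.343). It lay between -1.38 without wild-type array 1 and -0.75 without wild-type array 3.

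Tcf21, the factor of jaw muscle progenitors and epicardium, did not differ beyond its spread. It read 6.35, 6.52 and 7.28 in the wild-type samples and 6.57, 6.68 and 6.32 in the mutant samples, a difference of -0.20 with SE 0.25 and an interval of -0.78 to 0.38 (adjusted p = 0.781). The dimmer Tcf21 probe set, 1458887_at, averaged 4.06 and 4.13, below background.

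Foxf1, Foxf2, Osr1 and Tcf21 shared a pattern among the wild-type arrays, noticed after the values were seen. In each of these 4 genes array 1 was the lowest and array 3 the highest wild-type array, an order found in 19.5% of all genes. Relative to the wild-type mean, array 1 stood at -0.75, -0.69, -0.65 and -0.37 for Foxf1, Foxf2, Osr1 and Tcf21, and array 3 at 0.96, 0.68, 0.59 and 0.56. The mean of 25 other genes of splanchnic mesoderm and proepicardium was likewise lowest on wild-type array 1 (-0.37) and highest on array 3 (0.25), and stood at -0.33, 0.15 and 0.01 on the mutant arrays. The means of visceral endoderm markers (-1.13 and -1.86) and of paraxial mesoderm markers (-0.52 and -0.56) were lowest on wild-type array 1 and mutant array 1. These were the arrays with the lowest Foxf1 and Osr1 of their groups. Means of second heart field markers (-0.18 and -0.43) and of cardiomyocyte markers (-0.31 and -0.36) were lowest on the same arrays, so this order was not particular to tissues outside the heart. Of the 7 visceral endoderm markers, Afp and Ttr moved most. Afp read 4.08, 11.51 and 11.52 in the wild-type and 2.60, 9.46 and 10.001 in the mutant samples, and Ttr 7.49, 10.52 and 9.66 against 4.27, 6.42 and 8.35. Among the wild-type arrays Cubn, Apob and Apoa4 were lowest on array 3 and Amn on array 2. The visceral endoderm mean lay at 5.85 to 7.74 on wild-type and 5.12 to 6.89 on mutant arrays, with 6 of 7 genes lower in mutant cells. Y-linked transcripts were high on all 3 mutant arrays (means of 8.09 to 9.12) and on wild-type array 1 (9.08), and low on wild-type arrays 2 and 3 (3.33 and 3.43). With the Y-linked mean as a covariate the difference was -0.99 for Foxf1 and -0.58 for Osr1. Every mutant array was high in Y-linked signal, so this adjustment rests mostly on wild-type array 1 against wild-type arrays 2 and 3. The part of any of these marker lists in the Foxf1 and Osr1 values was not tested.

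**Figure D2:**
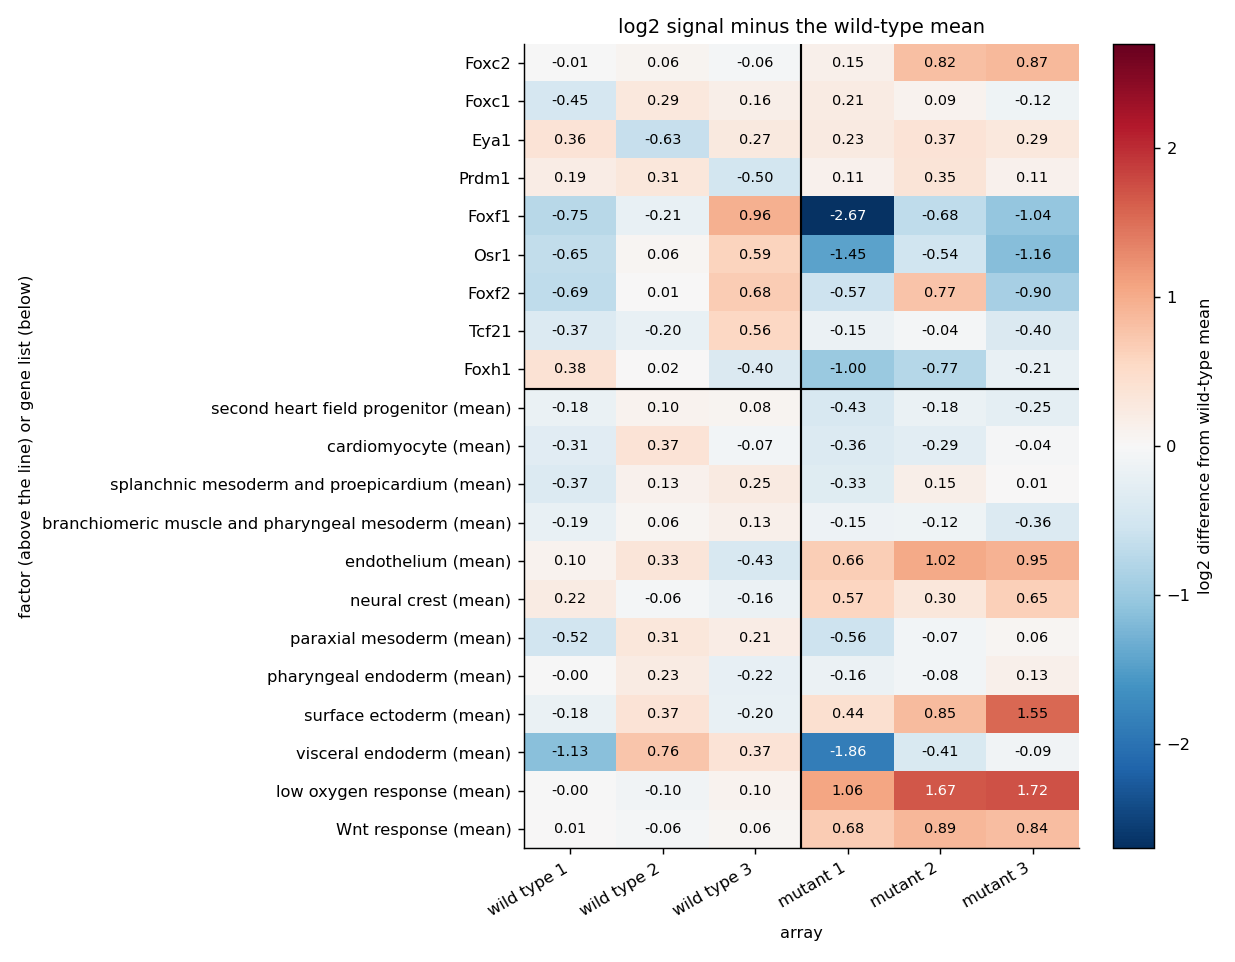
Log2 signal of each factor minus its wild-type mean, by array (columns), with the same quantity averaged over lists of marker and pathway genes below the black line; red is above and blue below the wild-type mean. Foxf1 and Osr1 are lowest on mutant array 1 (-2.67 and -1.45). The means of visceral endoderm (-1.86), paraxial mesoderm, second heart field and cardiomyocyte markers are also lowest there. Foxc2 stands at 0.82 and 0.87 on mutant arrays 2 and 3.

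Foxh1, the DNA-binding partner of Smad2 in Nodal signalling, had lower values in mutant cells on each of its 3 probe sets. The brightest, 1437779_at, read 7.06, 6.69 and 6.28 in the wild-type samples and 5.68, 5.91 and 6.47 in the mutant samples. Mutant array 3 lay above wild-type array 3, so the groups overlapped. The difference was -0.66 with SE 0.26 and an interval of -1.27 to -0.05 (adjusted p = 0.403). The Foxh1 probe set 1422212_at stood near background, with a difference of -0.13 (SE 0.25). The Foxh1 probe set 1422213_s_at lay below background on every array, with a difference of -0.39 (SE 0.16). The mean of all 3 probe sets gave -0.39.

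The rest of the Nodal pathway showed no common shift beside Foxh1. Of 19 other genes measured, 9 had higher and 10 lower values, 0 passed (limma; 1 gene at an unadjusted p under 0.05), and the median was -0.05. The activin receptor Acvr2a stood at 0.37 (adjusted p = 0.398) and the Smad corepressor Tgif1 at 0.35 (adjusted p = 0.443). Both were higher on every mutant array than on every wild-type array. Among the 19 genes groups did not overlap for 2 higher and 2 lower ones. Over all genes 17.8% had no overlap, and 11.6% had an unadjusted p under 0.05.

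Eya1, a cofactor expressed in pharyngeal mesoderm, endoderm and placodes, was steady on the mutant arrays. Its brightest probe set read 9.15, 8.16 and 9.05 in the wild-type samples and 9.02, 9.16 and 9.07 in the mutant samples. Wild-type array 2 alone was low, and without it the difference of 0.30 (SE 0.26, adjusted p = 0.667) became -0.02. The Eya1 probe set 1443117_at gave 0.16 (SE 0.28). On the Eya1 probe set 1457424_at the groups did not overlap, with 7.44, 6.78 and 7.33 against 7.73, 7.80 and 7.70, a difference of 0.56 (SE 0.19), short of the threshold (adjusted p = 0.358, limma over all 34945 single-gene probe sets). All 3 Eya1 probe sets were lowest on wild-type array 2.

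Prdm1, the repressor also known as Blimp1, differed by less than its spread. It read 6.89, 7.005 and 6.20 in the wild-type samples and 6.81, 7.04 and 6.81 in the mutant samples. Wild-type array 3 alone was low, and the other values lay within a narrow range. The difference was 0.19 with SE 0.22 and an interval of -0.33 to 0.71 (adjusted p = 0.756), and it was -0.06 without wild-type array 3. Markers of pharyngeal endoderm, where Prdm1 is also expressed, were higher for 6 of 10 genes, with means of 7.45 to 7.90 on wild-type and 7.51 to 7.81 on mutant arrays. Among 11 other Prdm genes 4 had higher and 7 lower values (median -0.09) and 0 passed by limma, with 2 at an unadjusted p under 0.05. Prdm8 stood at -1.26 (adjusted p = 0.402) and Prdm2 at 0.42 (adjusted p = 0.431), each with groups that did not overlap. Groups did not overlap for 1 higher and 2 lower genes of these 11. Over all genes 17.8% had no overlap, and 11.6% had an unadjusted p under 0.05.

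**Figure D3:**
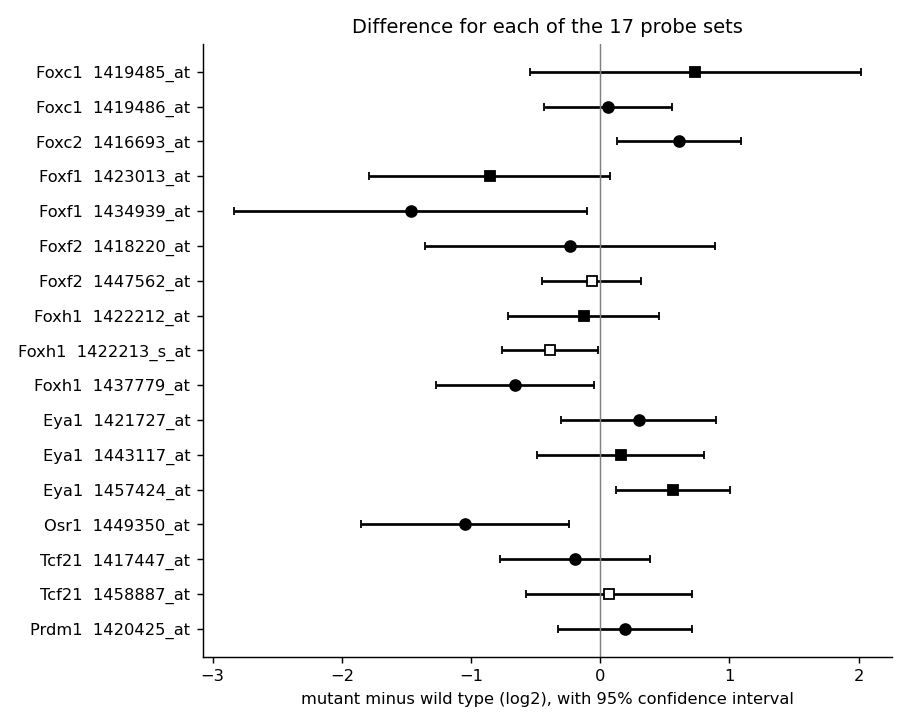
Difference between mutant and wild-type cells (log2) with its 95% confidence interval for each of the 17 probe sets; circles are the probe set that stands for its gene, squares the others, and open symbols lie below background in both groups. The groups do not overlap for Foxc2 and for Eya1 1457424_at, and the widest interval of a gene's main probe set is that of Foxf1.

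By probe set, 9 of the 17 had lower values, and groups did not overlap for 2 (11.8%), against 17.5% of all single-gene probe sets. At an adjusted p under 0.05, 0 of the 17 were called, where 0.0229% of all were, and 3 lay below background in both groups. Probe sets of a gene went the same way for Foxc1, Foxf1, Foxf2, Foxh1 and Eya1, and apart for Tcf21, whose dimmer probe set is below background. The dimmer Foxf2 probe set and 1422213_s_at of Foxh1 are below background as well. The shared direction within Foxf2 and within Foxh1 therefore rests in part on signal that was not detected.

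Other forkhead genes went both ways. Of 32 measured, 17 had higher and 15 lower values, with a median of 0.02, and 0 passed by limma. An unadjusted p under 0.05 was met by 5 of them, and by 11.6% of all genes. Foxo3, a target of growth factor signalling through AKT, stood at 0.96 (adjusted p = 0.292). Foxp4 stood at -0.82 (adjusted p = 0.307), and groups did not overlap for either gene. In this list groups did not overlap for 3 higher and 4 lower genes, where 17.8% of all genes had no overlap. The difference of Foxf1 (-1.47) lay below the lowest among the other forkhead genes, which was -1.07, and that of Foxc2 (0.61) lay inside their range.

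Among 17 other genes of pharyngeal mesoderm and jaw muscle, 6 had higher and 11 lower values, with a median of -0.22, and 0 passed by limma, with 2 at an unadjusted p under 0.05. Isl1 itself, whose locus drives the Cre, stood at -1.18 (adjusted p = 0.269) and the adaptor Crkl at -0.41 (adjusted p = 0.363), both lower on every mutant array than on every wild-type array. Among the 25 splanchnic and proepicardial genes 12 had higher and 13 lower values, with a median of -0.02, and 0 passed by limma, with 2 at an unadjusted p under 0.05. The cardiac T-box factor Tbx20 stood at -0.94 (adjusted p = 0.220) and Gata5 at -0.61 (adjusted p = 0.317), both without overlap. Groups did not overlap for 4 of the 17 genes and 2 of the 25, all lower in mutant cells. Over all genes 17.8% had no overlap, and 11.6% had an unadjusted p under 0.05.

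The labelled cell type was checked on 9 markers of second heart field progenitors. Isl1 read 9.46 and 8.27, lower on every mutant array, Mef2c 8.89 and 8.92, Tbx1 7.96 and 8.37, Gata4 7.76 and 6.88, Tbx5 7.62 and 6.91, Hand2 6.62 and 6.33, Fgf10 6.35 and 6.36 and Fgf8 5.65 and 6.12 in wild-type and mutant cells, all above background. Nkx2-5 averaged 4.82 and 4.36, below background in both groups. It read 4.89, 4.95 and 4.63 in the wild-type samples and 4.17, 4.34 and 4.56 in the mutant samples, lower on every mutant array. Only wild-type arrays 1 and 2 lay above background, and by little, so this marker of the label was at the edge of detection. Markers of other cells were detected too. Means of neuron and neural tube markers were 8.64 to 9.42 on wild-type and 7.71 to 8.86 on mutant arrays, with 7 of 8 genes lower. Primitive erythroid markers had means of 10.88 to 11.42 and 10.34 to 11.64, with 6 of 6 genes lower. Which cells gave these signals was not tested.

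The genes whose signals most resembled those of the 3 members with the smallest p were found by Pearson correlation over the 6 arrays, among 4289 genes above background with an SD of at least 0.3. For Osr1 they were Ghrl (r = 0.992), Akna (0.987) and Ephx2 (0.975). For Foxc2 they were Plp2 (0.995), Arhgap29 (0.991) and Bmp2 (0.991), and for Foxh1 Ncoa4 (0.981), Angpt2 (0.980) and Cldn13 (0.976). An r over 0.95 was found for 72 of these genes with Foxc2, 12 with Osr1 and 7 with Foxh1. The 6 arrays share the difference between the groups, and these values are a description.

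**Figure D4:**
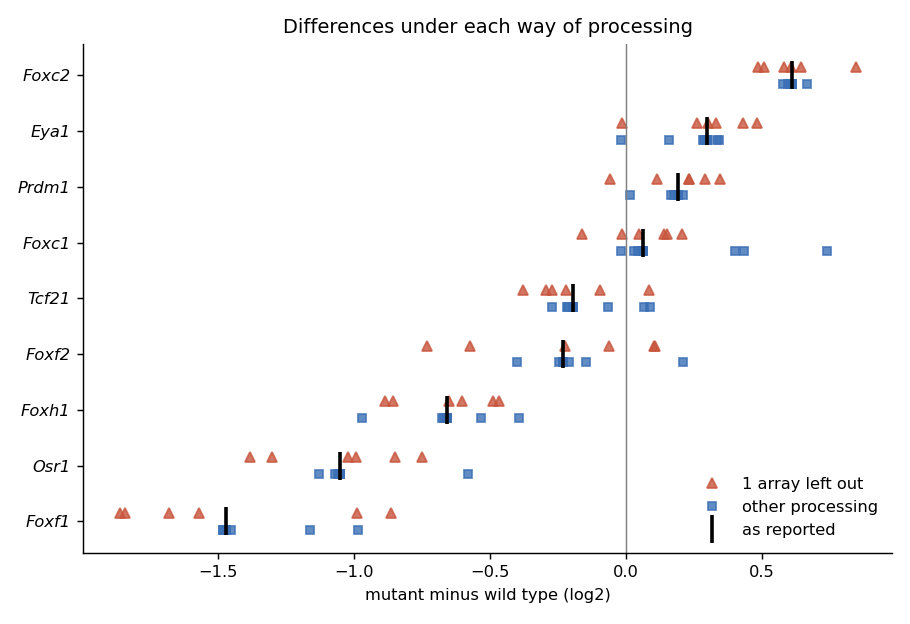
Difference between mutant and wild-type cells (log2) of each factor as reported (black bar), with 1 array left out (red triangles) and under other ways of processing (blue squares). Foxc2 stays above 0 and Foxf1, Osr1 and Foxh1 below 0 in all of those shown, while Foxc1, Foxf2, Eya1, Tcf21 and Prdm1 cross 0 in at least 1 of them.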

How the data were processed

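RNA of 6 samples of sorted cells was extracted with Trizol, amplified from small inputs (WT-Ovation Pico) and labelled with biotin, per the labels' protocols. The authors deposited log2 signals for 45101 probe sets on each array; the base of the logarithm was inferred from their range. How the authors corrected background, summarised probes and normalized is not stated in what was used here. After sorting, the arrays differed little (SD at a rank at most 0.0693), so a shift of most genes one way may have been removed before deposit, and the values were used without further scaling. The number of arrays limits the precision.

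Probe sets were named by GEO's platform annotation with symbols updated through a RefSeq gene table (34741 of 34945 matched; 932 naming several genes and 9160 unnamed were left out). The probe set with the highest mean stood for a gene, and no dim gene was removed. Groups were compared with limma 3.58.1 in R 4.3.3 (lmFit, eBayes, two-sided, residual degrees of freedom 4, prior 3.45); p-values were adjusted by Benjamini-Hochberg across the 18193 genes and called under 0.05; means are given with SD and differences with moderated SE. Members and lists were chosen with earlier results of these data known. Named besides the members are the 2 genes above background with the smallest p of each list other than the marker lists (1 list is not reported here), the heart field markers and the 3 genes most like each of 3 members; Mthfsd and the pairs of neighbours were added after the values were seen. Alternatives were a replicate block, quantile normalization, median centring, leaving out the dimmest 40% of genes, other probe set choices, a trended robust prior, array weights, a Y-linked covariate, calls at 0.01 and the omission of every array in turn.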

Additional observations from a re-analysis of the deposited data

How the results depend on the processing

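None of the 9 factors was called in any of the 16 alternatives (Foxf2 was not tested without the dimmest 40% of genes), and Foxc2, Foxf1, Foxh1 and Osr1 kept their direction throughout. The smallest adjusted p of a member was 0.0679, for Foxc2 without mutant replicate 1. Several smaller differences changed sign. With the Y-linked covariate Eya1 stood at -0.0189, Foxf2 at 0.207 and Tcf21 at 0.0862, while Foxc1 moved from 0.061 to 0.434 and kept its sign. With array weights Foxc1 stood at -0.0206. With the most variable probe set Tcf21 stood at 0.0654, and the change in the ratio of Foxc2 to Foxc1 went from 0.55 to -0.126. With each array left out in turn, differences ran from -0.0164 to 0.479 for Eya1, -0.162 to 0.206 for Foxc1, -0.733 to 0.107 for Foxf2, -0.0593 to 0.345 for Prdm1 and -0.379 to 0.0855 for Tcf21; the cause was not tested. The 12 genes called over all genes became 6 with median centring, 1 with the most variable probe set, with the mean of all probe sets and with the Y-linked covariate, and 0 with the threshold of 0.01, and ran from 0 to 92 with single arrays left out. Over genes, deviations correlated little between arrays of the same replicate number (0.108, -0.0751 and -0.0161). Mutant and wild-type array 1 alone correlated best with their own number, so whether the numbers pair samples is not settled. With a replicate block in limma 0 genes and 0 members were called, with Foxf1 at an adjusted p of 0.253 and Osr1 at 0.276. The block moved the unadjusted p of Foxf1 from 0.0402 to 0.00405 and of Osr1 from 0.018 to 0.00588. That of Foxh1 moved from 0.0383 to 0.0718 and that of Foxc2 from 0.0187 to 0.0202. Signals near background limit what Foxf2 and the dimmer probe sets of Foxh1 and Tcf21 can show.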
